A study of Mus musculus with 35 samples.

Results

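Hyaluronan is a long, unsulfated sugar polymer of the extracellular matrix. It is spun out at the plasma membrane by hyaluronan synthases from sugar nucleotides, is cleaved outside and inside the cell by hyaluronidases and by the CEMIP protein, and is held at the cell surface and in the matrix by receptors and binding proteins. In the heart, fibroblasts are a main source of this matrix, and its short fragments are known as inflammatory signals. Here 9 genes that make, break or bind hyaluronan were followed, of 55487 genes in the tables. They were taken by symbol and are the synthases Has1, Has2 and Has3, the turnover genes Hyal1, Hyal2 and Cemip, the receptor Cd44, and the binding proteins Vcan and Tnfaip6. In GRCm38 the most abundant lie on the minus strand, Cemip at chr7:83932857-84086502 (28 merged exons), Cd44 at chr2:102811141-102901665 (19) and Vcan at chr13:89655312-89742509 (16). Tnfaip6 lies at chr2:52038009-52056686 on the plus strand, Has1 at chr17:17843323-17855205 and Has2 at chr15:56665627-56694539 on the minus strand.

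RNA-Seq was available for 27 libraries of mouse cardiac fibroblasts (CFs) and 8 of hearts. The CFs came from adult mice by enzymatic digestion and adherence to plates, and received a control siRNA (si-NC) or 1 of 2 siRNAs against the IAMP transcript 4930523C07Rik (si-IAMP-1 and si-IAMP-2). They were left untreated or were given IL-17 or TGF-β, with 3 libraries in each of the 9 groups. The IL-17 cells had 24 h of siRNA and then 24 h of IL-17, while no time for the other cells and no dose for the cells of these libraries was found in the sources used here. The hearts came from C57BL/6 mice that were heterozygous (Het, 4 hearts) or knockout (KO, 4 hearts) for IAMP, so the controls carried 1 disrupted copy. A CF library held 104139670 to 119232309 estimated counts and a heart 23497027 to 23857313 counts. Nothing in the labels says that the CF libraries came from separate cultures or animals, so the p-values measure the spread between these libraries, which may be technical. Each stimulus has its own table, and the TGF-β samples were deposited later than the others, so that a stimulus and its table cannot be told apart.

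The target transcript was lower in every siRNA library than in every si-NC library of its table. In untreated CFs it was at 23.5 ± 1.98 CPM (counts scaled to equal library size, mean ± SD, n = 3) with si-NC, 3.01 ± 0.494 with si-IAMP-1 and 1.84 ± 0.0635 with si-IAMP-2. The log2 fold changes were -2.97 and -3.69 in untreated, -2.85 and -3.44 in IL-17 and -2.23 and -2.65 in TGF-β CFs. In hearts the transcript was at 17.0 ± 1.25 CPM in Het and 16.0 ± 0.975 in KO (SD, n = 4), and since the knockout is a frameshift, this level is no check of the genotype. Fibroblast markers summed to 15011 to 22744 CPM in the CF libraries, against 771 to 1136 in hearts. Cardiomyocyte markers summed to at most 98.2 CPM in CFs, nearly all of it Tnnt2 (93.4 ± 4.14 CPM of 94.9 ± 3.91 in untreated si-NC), with the defining Myh6 and Myl3 at 0 there. In a bulk library, fewer cells of a type and less RNA per cell cannot be told apart.

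Genes were compared with edgeR's quasi-likelihood test, with p-values adjusted by Benjamini-Hochberg over all genes tested. Calls required an adjusted p within 0.05 together with a log2 change of 1 or more in size for untreated CFs, hearts and comparisons across tables, or a 1.5-fold change within the IL-17 or TGF-β table. Per kilobase of merged exons, the order in untreated si-NC CFs was Cemip (64.6 ± 2.63 CPM per kb), Cd44 (50.5 ± 2.29), Vcan (8.27 ± 0.48), Tnfaip6 (7.73 ± 0.261), Hyal2 (5.85 ± 0.126), Hyal1 (1.26 ± 0.0913), Has2 (1.22 ± 0.178), Has1 (0.383 ± 0.0924) and Has3 (0.156 ± 0.0514), all SD with n = 3. The neighbours Vcan and Tnfaip6, and Hyal1 and Has2, lay within 2 SD of each other. The synthases were thus at the low end and a turnover gene and a receptor at the high end. Hyal1 shares 50.8% of its exon bases with Naa80 on the same strand, so its values could include reads of that gene. Has2 shares 4.29% of its exon bases with its antisense gene Has2os, and as the strand setting of the counting is not stated, reads of the 2 cannot be told apart in that stretch. The same holds for Has3, which shares 5.52% of its exon bases with the protein-coding gene Chtf8 on the other strand.

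**Figure D1:**
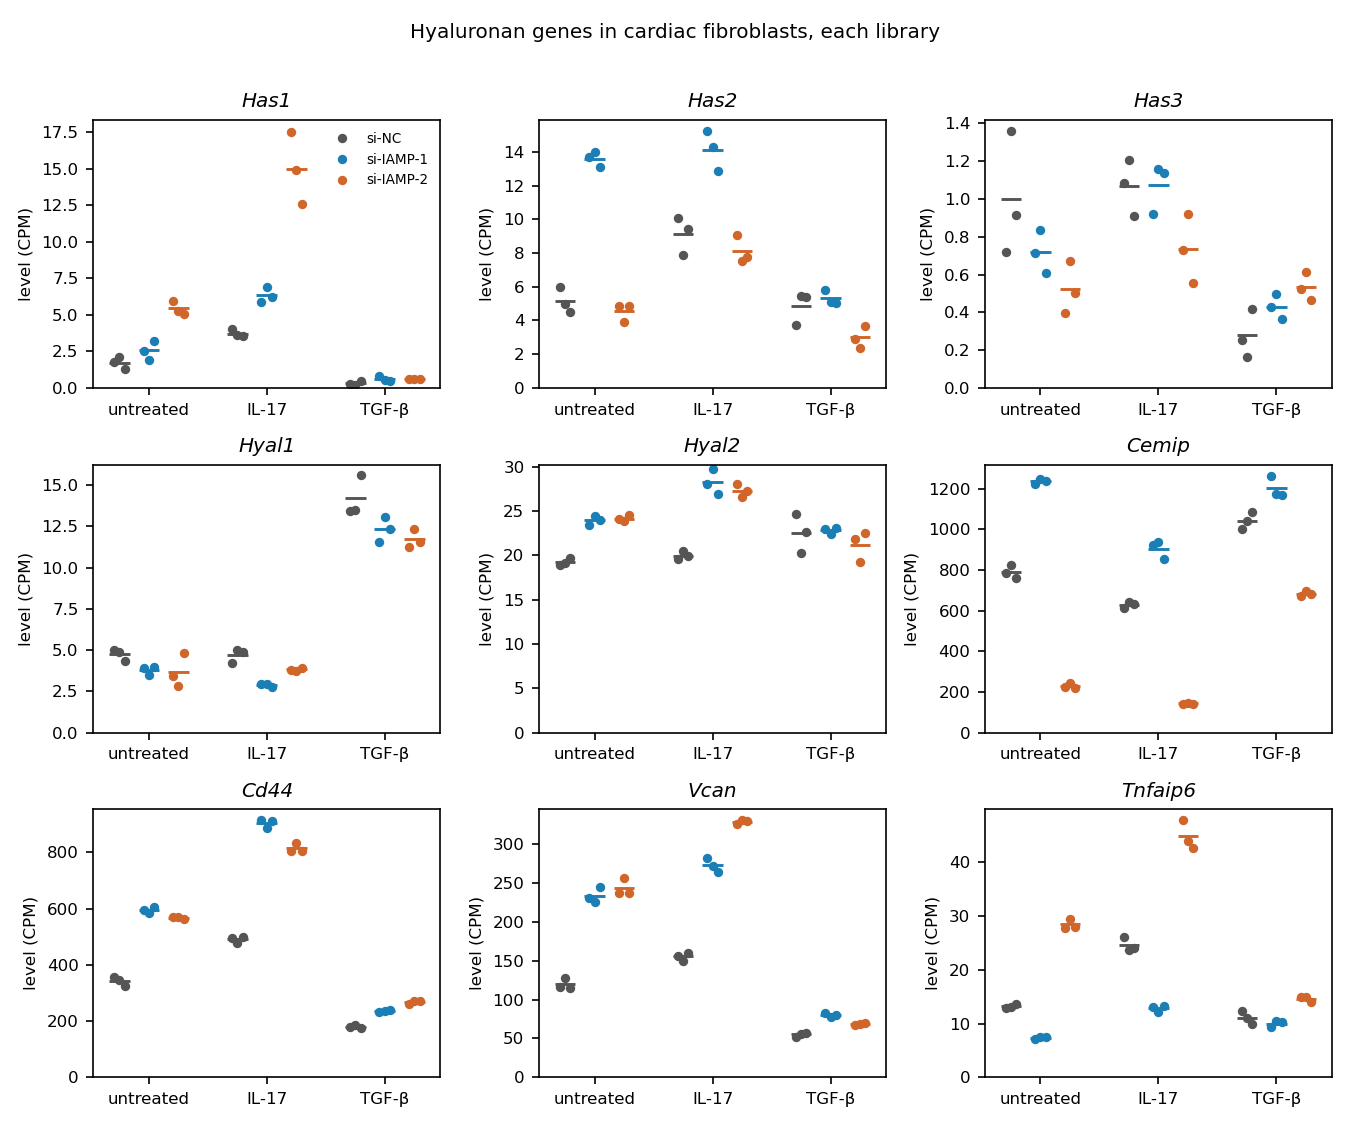
Level in CPM (y axis, linear, from 0) of each of the 9 hyaluronan genes in the 27 CF libraries, by stimulus (x axis) and siRNA (colour), with a point per library and a bar at each mean of 3. Cemip and Tnfaip6 lie on opposite sides of si-NC with the 2 siRNAs in untreated and IL-17 cells, while Cd44 and Vcan are above si-NC with both.

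The stretches just upstream of starts are shown because Tnfaip6, Cemip and Cd44 stand for the 3 patterns described here, namely opposite responses in either direction and a shared one. They are from RefSeq (GRCm38.p6), read in the direction of the gene and ending before the first annotated transcribed base. Capitals mark the only motif matches found in the promoters of the members, which run from 250 bases before to 50 after the start. Promoters of 7 of the 9 members were searched, without Has2 and Has3.
Tnfaip6 (plus strand, chr2:52037863-52038008): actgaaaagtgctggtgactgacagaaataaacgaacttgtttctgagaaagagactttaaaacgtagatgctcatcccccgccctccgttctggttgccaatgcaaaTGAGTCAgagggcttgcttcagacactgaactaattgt
Cemip (minus strand, chr7:84086506-84086755): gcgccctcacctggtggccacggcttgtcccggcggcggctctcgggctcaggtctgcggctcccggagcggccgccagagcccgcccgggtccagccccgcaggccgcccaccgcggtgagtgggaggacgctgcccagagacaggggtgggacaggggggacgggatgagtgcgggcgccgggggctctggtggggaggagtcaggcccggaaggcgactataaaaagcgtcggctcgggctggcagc
Cd44 (minus strand, chr2:102901666-102901915): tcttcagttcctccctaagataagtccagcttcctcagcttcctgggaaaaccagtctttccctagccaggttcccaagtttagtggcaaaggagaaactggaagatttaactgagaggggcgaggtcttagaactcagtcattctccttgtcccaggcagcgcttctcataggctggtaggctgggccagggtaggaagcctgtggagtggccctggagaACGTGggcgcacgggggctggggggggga

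The AP-1 motif TGANTCA was found, on both strands as it reads the same, in 1 of the 7 promoters, that of Tnfaip6, and in 7.81% of all 32851 promoters in the table. The hypoxia response element core ACGTG, searched on both strands, was found in 1 of the 7, that of Cd44, and in 19.6% of all. A κB form of 3 G, 2 free bases, 3 T and 2 C, searched on both strands, was found in none of the 7 and in 1.63% of all. A match describes these letters only.

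Among the synthases, Has1 and Has2 answered the 2 siRNAs differently. Has2, the synthase of developing heart cushions, rose with si-IAMP-1 in untreated and IL-17 CFs. In untreated CFs it was at 5.99, 5.00 and 4.51 CPM with si-NC, at 13.7, 14.0 and 13.1 with si-IAMP-1, and at 4.88, 3.93 and 4.86 with si-IAMP-2. All si-IAMP-1 libraries lay above all others, and the si-IAMP-2 libraries overlapped those of si-NC. Has2 rose with si-IAMP-1 by 1.39 ± 0.11 (log2 fold change ± SE, edgeR, adjusted p = 4.26e-08), and si-IAMP-2 lay below si-IAMP-1 by a log2 fold change of -1.59 ± 0.12 (edgeR, adjusted p = 5.95e-09).

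Under IL-17, Has2 was at 10.1, 7.88 and 9.43 CPM with si-NC, 15.3, 14.3 and 12.9 with si-IAMP-1, and 9.09, 7.51 and 7.79 with si-IAMP-2. It again rose with si-IAMP-1 (0.62 ± 0.10, edgeR, adjusted p = 7.06e-05), a value that fell under the fold threshold to 0.53 without si-NC replicate 2 and to 0.56 without si-IAMP-1 replicate 1. The untreated effect of si-IAMP-1 was larger by 0.77 than that under IL-17 (difference -0.77 ± 0.16, edgeR, adjusted p = 0.00546), short of the log2 difference of 1 required. Under TGF-β it was at 3.73, 5.44 and 5.38 CPM with si-NC and 5.81, 5.08 and 5.05 with si-IAMP-1, which overlapped, and at 2.88, 2.40 and 3.69 with si-IAMP-2, below all of these. Has2 fell with si-IAMP-2 there (-0.70 ± 0.17, edgeR, adjusted p = 0.00368), and without si-IAMP-2 replicate 2 the change was -0.56 and no longer called. The si-IAMP-1 effect differed between TGF-β and untreated CFs by -1.26 ± 0.21 (edgeR, adjusted p = 9.02e-05). Has2os held 6 to 60 estimated counts per CF library and was called in none of the comparisons.

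Has1, a synthase known to be induced by inflammatory cytokines, was highest with si-IAMP-2 in untreated and IL-17 CFs. In untreated CFs it was at 1.79, 2.11 and 1.28 CPM with si-NC, 2.56, 1.94 and 3.23 with si-IAMP-1, and 5.98, 5.28 and 5.05 with si-IAMP-2. The si-IAMP-2 libraries stood above all others, and those of si-IAMP-1 overlapped si-NC (0.57 ± 0.20, adjusted p = 0.0285, under the fold threshold). It rose with si-IAMP-2 by 1.63 ± 0.20 (edgeR, adjusted p = 2.09e-06), and si-IAMP-2 exceeded si-IAMP-1 by 1.06 ± 0.19 (edgeR, adjusted p = 0.000197). The latter dropped to 0.90 without si-IAMP-1 replicate 2 and to 0.99 without si-IAMP-2 replicate 1, under the threshold.

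Under IL-17, Has1 stood at 4.01, 3.60 and 3.53 CPM with si-NC, 5.88, 6.92 and 6.22 with si-IAMP-1 and 17.5, 14.9 and 12.6 with si-IAMP-2, with no overlap between the 3 groups. It rose with both siRNAs, by 0.76 ± 0.11 (adjusted p = 3.36e-05) and 1.99 ± 0.12 (adjusted p = 1.39e-10, edgeR). TGF-β cells held little of it, at 0.274, 0.229 and 0.472 CPM with si-NC, 0.842, 0.561 and 0.459 with si-IAMP-1 and 0.598, 0.626 and 0.640 with si-IAMP-2, or 25 to 91 estimated counts. One read pair is worth up to 6 estimated counts, so these are few reads, and Has1 was called with neither siRNA (edgeR, adjusted p = 0.0729 and 0.0596). Without TGF-β si-NC replicate 3, Has1 passed with both siRNAs, at log2 fold changes of 1.30 and 1.30.

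Has3 was the least abundant synthase, at 18 to 163 estimated counts per CF library, where the floor of 3 read pairs is 18. In untreated CFs it was at 0.719, 1.36 and 0.914 CPM with si-NC and 0.397, 0.671 and 0.505 with si-IAMP-2, a log2 fold change of -0.95 ± 0.30 (edgeR, adjusted p = 0.0152) that missed the fold threshold. It passed, with -1.14, -1.01 and -1.15, without si-NC replicate 1, si-NC replicate 3 or si-IAMP-2 replicate 2. Under IL-17 its means were 1.07 ± 0.149, 1.07 ± 0.132 and 0.734 ± 0.183 CPM, and it was not called. Under TGF-β the si-IAMP-2 libraries (0.522, 0.616 and 0.464 CPM) lay above si-NC (0.255, 0.165 and 0.417), and the si-IAMP-2 effect differed from that in untreated CFs by 1.86 ± 0.50 (edgeR, adjusted p = 0.00592). Has3 itself was not called there (adjusted p = 0.0851), and was without TGF-β si-NC replicate 3, at 1.34.

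Among the turnover genes, Cemip, which binds hyaluronan and drives its breakdown to shorter chains, showed the widest gap between the siRNAs. In untreated CFs it was at 785, 825 and 761 CPM with si-NC, 1225, 1246 and 1238 with si-IAMP-1 and 223, 243 and 219 with si-IAMP-2. No group overlapped another, and the 2 siRNAs lay on opposite sides of si-NC. Cemip fell with si-IAMP-2 by 1.81 on the log2 scale (-1.81 ± 0.04, edgeR, adjusted p = 1.38e-15), or 3.51-fold, and was higher with si-IAMP-1 by 0.64 ± 0.04 (adjusted p = 4.51e-10), under the fold threshold. Between the siRNAs the difference was -2.45 ± 0.04 (edgeR, adjusted p = 6.29e-17).

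IL-17 cells showed the same order, with Cemip at 615, 642 and 632 CPM with si-NC, 921, 936 and 852 with si-IAMP-1 and 142, 148 and 141 with si-IAMP-2. The fall with si-IAMP-2 was -2.15 ± 0.04 and the difference of the siRNAs -2.66 ± 0.04 (edgeR, adjusted p = 2.79e-17 and 6.71e-18). Under TGF-β the means ± SD were 1041 ± 41.3 CPM with si-NC, 1202 ± 52.3 with si-IAMP-1 and 684 ± 12.5 with si-IAMP-2 (n = 3). Cemip still fell with si-IAMP-2, by -0.61 ± 0.04 (edgeR, adjusted p = 2.48e-09), a value just past the threshold that became -0.58 without TGF-β si-NC replicate 3. This effect differed from that in untreated CFs by 1.19 ± 0.06 (edgeR, adjusted p = 1.26e-13).

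The hyaluronidases differed less between the 2 siRNAs than Cemip did. With si-IAMP-1 under IL-17, however, Cemip changed by 0.51 ± 0.03 and was not called, against -0.71 for Hyal1. Hyal1, a lysosomal enzyme, was at 4.24, 4.98 and 4.87 CPM with si-NC under IL-17, at 2.95, 2.93 and 2.78 with si-IAMP-1 and at 3.81, 3.77 and 3.91 with si-IAMP-2. It fell with si-IAMP-1 there (-0.71 ± 0.12, edgeR, adjusted p = 7.62e-05) and was called in no other siRNA comparison. Under TGF-β it was at 14.2 ± 1.23, 12.3 ± 0.753 and 11.7 ± 0.557 CPM, every siRNA library being below every si-NC library. These changes were small, at -0.20 ± 0.08 with si-IAMP-1 and -0.27 ± 0.08 with si-IAMP-2 (edgeR, adjusted p = 0.077 and 0.014). Hyal2, a membrane-anchored enzyme, lay between 18.9 and 29.7 CPM in all 27 CF libraries and was called in no comparison. In untreated and IL-17 CFs every siRNA library held more Hyal2 than every si-NC library, the largest log2 fold change being 0.49 ± 0.05 (edgeR, adjusted p = 1.16e-06), with si-IAMP-1 under IL-17.

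Cd44, the main cell-surface receptor for hyaluronan, and Vcan, the large proteoglycan versican that binds it, were above si-NC with both siRNAs in each table. Cd44 was at 357, 345 and 326 CPM with si-NC in untreated CFs, 595, 586 and 606 with si-IAMP-1 and 571, 569 and 564 with si-IAMP-2. Under IL-17 it was at 494, 478 and 499, at 916, 887 and 911 and at 806, 831 and 805 CPM in the same order. In both tables all siRNA libraries stood above all si-NC libraries. The log2 fold changes were 0.79 ± 0.03 and 0.71 ± 0.03 in untreated CFs, where a log2 change of 1 was required. They were 0.87 ± 0.03 and 0.71 ± 0.03 under IL-17, where Cd44 rose with both (edgeR, adjusted p = 7.6e-14 and 3.43e-13). Under TGF-β its means were 179 ± 5.30, 236 ± 3.74 and 267 ± 5.09 CPM, and the changes of 0.40 and 0.58 did not reach the threshold. The si-IAMP-2 change did pass, at 0.60 and 0.59, without TGF-β si-NC replicate 2 or si-IAMP-2 replicate 1.

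Vcan was at 117, 128 and 115 CPM with si-NC in untreated CFs, 230, 225 and 245 with si-IAMP-1 and 237, 256 and 236 with si-IAMP-2. Its change was 0.96 ± 0.04 with si-IAMP-1 and 1.00 ± 0.04 with si-IAMP-2, on either side of the threshold of 1, and only the second was called (edgeR, adjusted p = 2.78e-11 and 5.12e-12). Both calls turn on 1 library, since the first becomes 1.01 without si-NC replicate 2 and the second 0.98, 0.97 and 0.97 without si-NC replicate 1, si-NC replicate 3 or si-IAMP-2 replicate 2. Under IL-17 Vcan rose with both siRNAs, from 155 ± 5.10 CPM to 272 ± 8.60 and 328 ± 2.51 (0.80 ± 0.03 and 1.06 ± 0.03, edgeR, adjusted p = 1.5e-12 and 1.66e-14). Under TGF-β it was at 55.2 ± 2.82, 80.4 ± 2.88 and 68.9 ± 0.921 CPM and was not called.

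Tnfaip6 encodes TSG-6, a secreted protein that links hyaluronan to other matrix proteins and is known to be induced in inflammation. It moved opposite to Cemip. In untreated CFs it was at 12.8, 13.1 and 13.7 CPM with si-NC, 7.13, 7.58 and 7.49 with si-IAMP-1 and 27.7, 29.5 and 28.0 with si-IAMP-2, with no overlap. It rose with si-IAMP-2 (1.09 ± 0.06, edgeR, adjusted p = 1.62e-10) and was lower with si-IAMP-1 by a log2 fold change of -0.84 ± 0.06 (adjusted p = 1.26e-08), under the threshold. Under IL-17 it was at 26.1, 23.6 and 24.0 CPM with si-NC, 13.0, 12.1 and 13.3 with si-IAMP-1 and 47.8, 44.0 and 42.7 with si-IAMP-2. There it fell with si-IAMP-1 (-0.95 ± 0.06) and rose with si-IAMP-2 (0.85 ± 0.06, edgeR, adjusted p = 1.33e-09 and 2.05e-09). The siRNAs differed by 1.93 ± 0.06 in untreated and 1.80 ± 0.06 in IL-17 CFs (edgeR, adjusted p = 3.87e-13 and 3.45e-13). Under TGF-β it was at 11.1 ± 1.23, 10.0 ± 0.575 and 14.6 ± 0.528 CPM and was not called.

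**Figure D2:**
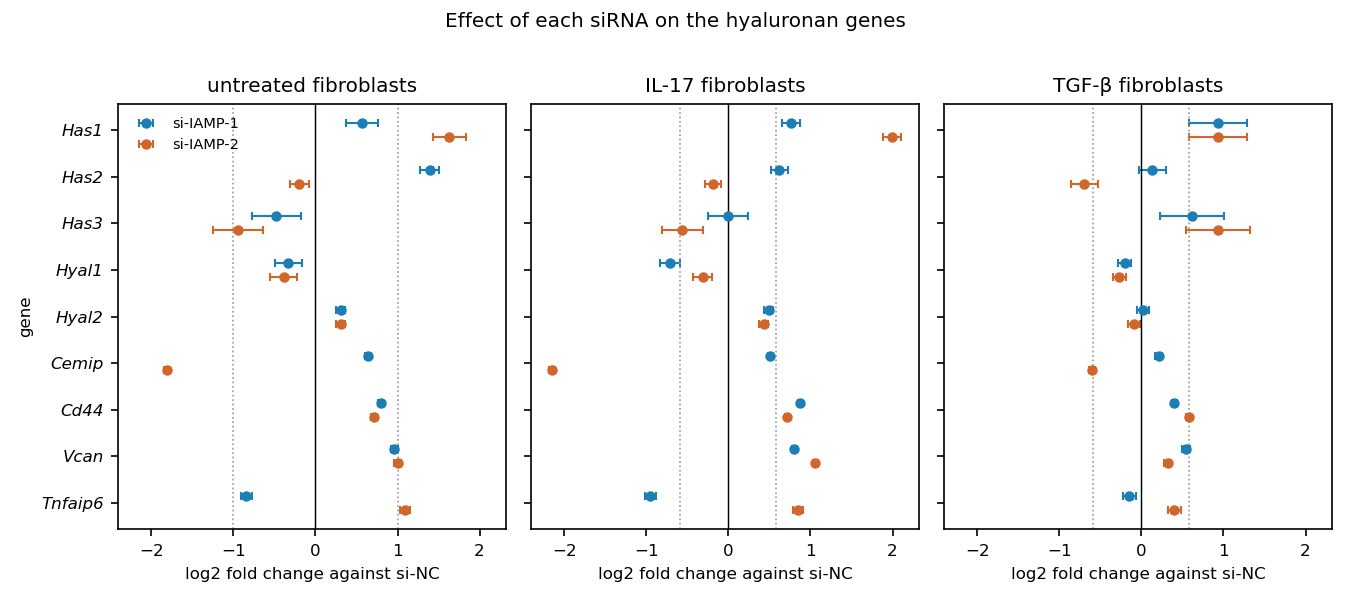
Log2 fold change of each gene (x axis) with si-IAMP-1 and si-IAMP-2 against si-NC from edgeR, in untreated, IL-17 and TGF-β CFs (3 libraries a group). Bars are standard errors and dotted lines the fold thresholds, a log2 change of 1 in untreated CFs and 1.5-fold in the others. Cemip and Tnfaip6 point in opposite directions with the 2 siRNAs in the first and second panels.

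In counts, 1 member was higher and 0 lower with si-IAMP-1 in untreated CFs, where 2.15% of all genes tested were called higher and 2.61% lower. With si-IAMP-2, 3 were higher and 1 lower, against 3.42% and 7.23% of all genes. Between the siRNAs, 2 were higher and 2 lower with si-IAMP-2, against 2.24% and 4.41%. Under IL-17, 4 were higher and 2 lower with si-IAMP-1 (5.58% and 7.97% of all genes), 4 and 1 with si-IAMP-2 (8.06% and 13.7%), and 2 and 2 between the siRNAs (6.07% and 9.62%). Under TGF-β, 0 members were called with si-IAMP-1 (2.45% higher and 1.91% lower of all genes), although 3 members had an adjusted p within 0.05 and 5 an unadjusted p under 0.05 in edgeR. Of all 19891 genes tested there, 4596 and 6466 met these limits. DESeq2 also called 0 members with si-IAMP-1. With si-IAMP-2, 0 were higher and 2 lower (2.07% and 5.44%), and between the siRNAs 0 and 2 (0.84% and 3.12%). The 2 comparisons with si-NC in a table share its control libraries. The median log2 fold change of the 9 members with si-IAMP-1 was 0.57 in untreated and 0.51 in IL-17 CFs, and with si-IAMP-2 0.31 and 0.43, while the median of all genes was between -0.02 and 0.00. Under TGF-β the medians were 0.21 and 0.32, beside 0.00 and 0.01 over all genes. A median does not show that Cemip and Tnfaip6 went in opposite directions with the 2 siRNAs.

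Summed markers of mitosis were lower with both siRNAs than with si-NC in each table. Their sum over 8 genes was 1035 ± 6.23 CPM with si-NC in untreated CFs, 596 ± 26.4 with si-IAMP-1 and 316 ± 13.7 with si-IAMP-2 (SD, n = 3), and Mki67 was the most abundant of them with si-NC. The sum was 1029 ± 20.9, 590 ± 23.0 and 319 ± 10.1 under IL-17, and 223 ± 6.01, 137 ± 9.50 and 101 ± 4.43 under TGF-β. Of the 8 genes, 1 was called lower with si-IAMP-1 and 8 with si-IAMP-2 in untreated CFs, and 8 with TGF-β in si-NC cells. Under IL-17 and TGF-β, where a 1.5-fold change was required, 8 and 5 were called lower with si-IAMP-1, and 8 and 8 with si-IAMP-2. Summed cardiomyocyte markers moved the same way, from 94.9 ± 3.91 CPM with si-NC to 45.8 ± 2.79 and 31.2 ± 2.58 in untreated CFs. With TGF-β and si-NC their sum was 5.99 ± 0.394 CPM, with Tnnt2 at 4.76 ± 0.245, and 0 were called higher and 2 lower of 5 tested. Fibroblast markers summed to 15895 ± 286 CPM in untreated si-NC cells and 19105 ± 416 with TGF-β, where 1 (Dcn) was called higher and 3 (Pdgfra, Ddr2 and Thy1) lower of 10. With si-IAMP-1 and si-IAMP-2 they summed to 21207 ± 453 and 21869 ± 222 CPM in untreated CFs, with 0 of 10 called for si-IAMP-1 and 1 higher and 1 lower for si-IAMP-2. Under IL-17 their sum was 15170 ± 164 with si-NC, 19823 ± 386 with si-IAMP-1 and 21594 ± 310 with si-IAMP-2. Of the 10, 1 was called higher and 1 lower there for si-IAMP-1, and 2 and 2 for si-IAMP-2. Their median log2 fold changes were -0.01 and -0.02. Col3a1 went from 2794 ± 32.2 CPM with si-NC to 8355 ± 247 with si-IAMP-2 under IL-17, while Col1a1 went from 3553 ± 61.2 to 3259 ± 65.1. Macrophage markers summed to 59.0 ± 2.14, 60.0 ± 1.67 and 76.0 ± 1.94 CPM in untreated CFs with si-NC, si-IAMP-1 and si-IAMP-2, with Lyz2 the most abundant, and to 160 ± 4.57 with TGF-β and si-NC. Of these 8 genes, 4 were called higher with TGF-β, among them Lyz2, from 39.1 ± 2.06 to 113 ± 1.69 CPM, and 1 lower, C1qa, from 2.15 ± 0.495 to 0.854 ± 0.103. Endothelial markers summed to 68.4 ± 2.56 CPM in untreated si-NC cells and 111 ± 0.526 with TGF-β, where Cdh5 was the most abundant, at 37.4 ± 1.31. Of these 6 genes, 1 (Emcn) was called higher and 1 (Kdr) lower with TGF-β. Smooth muscle and pericyte markers summed to 64.7 ± 4.45, 55.6 ± 2.41 and 49.0 ± 4.82 CPM in untreated CFs with si-NC, si-IAMP-1 and si-IAMP-2, where 0 of 4 were called for either siRNA, and to 44.6 ± 0.886 with TGF-β and si-NC. Most of that sum was Cspg4, at 58.5 ± 4.39 and 29.4 ± 1.21 CPM without and with TGF-β and not called, while 1 of the 4 (Rgs5) was called higher and their median log2 fold change was 0.71. The part of these in the changes of the members was not tested.

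The stimuli were compared in si-NC cells, that is, without IAMP siRNA. As each stimulus has its own table, the differences given here are of stimulus and table together. Has1 was higher with IL-17, at 3.72 ± 0.262 CPM against 1.73 ± 0.417 in untreated cells (1.10 ± 0.17, edgeR, adjusted p = 4.58e-05). In counts, 1 member was higher and 0 lower, against 1.09% and 0.306% of all genes. Without untreated si-NC replicate 3 the change was 0.93 and Has1 was no longer called. Has2 (0.82 ± 0.11) and Tnfaip6 (0.89 ± 0.06) were above untreated in every IL-17 library, with adjusted p of 5.11e-06 and 9.72e-12 in edgeR, and remained under the log2 change of 1. Cd44 (0.52 ± 0.03) and Vcan (0.37 ± 0.04) likewise stood above untreated in every IL-17 library, and Cemip (-0.33 ± 0.04) below. All were also under the threshold (edgeR, adjusted p = 4.2e-13, 4.61e-08 and 1.22e-07). Summed smooth muscle and pericyte markers went from 64.7 ± 4.45 to 88.8 ± 1.99 CPM with IL-17, with 0 of 4 called. Cardiomyocyte markers went from 94.9 ± 3.91 to 72.9 ± 3.63 CPM, with 0 called higher and 1 lower of 5 tested. The part of these in the members' changes was not tested.

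With TGF-β in si-NC cells, 1 member was higher and 3 lower, against 12.5% and 9.07% of all genes. The number of members higher was thus near the share of all genes. Hyal1 rose from 4.76 ± 0.345 to 14.2 ± 1.23 CPM (1.57 ± 0.13, edgeR, adjusted p = 1.13e-10). With TGF-β the summed endothelial, macrophage and fibroblast markers given above were also higher and the mitosis, cardiomyocyte and smooth muscle and pericyte sums lower. The median log2 fold change went against the sum for fibroblast markers (-0.45) and for smooth muscle and pericyte markers (0.71). The part of these in the members' changes was not tested. Has1 fell from 1.73 ± 0.417 to 0.325 ± 0.129 CPM (-2.41 ± 0.27), Has3 from 0.998 ± 0.328 to 0.279 ± 0.128 (-1.84 ± 0.36) and Vcan from 120 ± 6.94 to 55.2 ± 2.82 (-1.12 ± 0.05, edgeR, adjusted p = 3.52e-08, 0.000111 and 2.56e-16). Cd44 changed by -0.94 ± 0.03 (edgeR, adjusted p = 1.16e-17), under the threshold, and Has2 was at 5.17 ± 0.755 and 4.85 ± 0.971 CPM. Smaller changes were those of Cemip (0.39 ± 0.04), Hyal2 (0.22 ± 0.06) and Tnfaip6 (-0.25 ± 0.07, edgeR, adjusted p = 6.17e-09, 0.00493 and 0.00423). The tables were normalized together for these values.

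**Figure D3:**
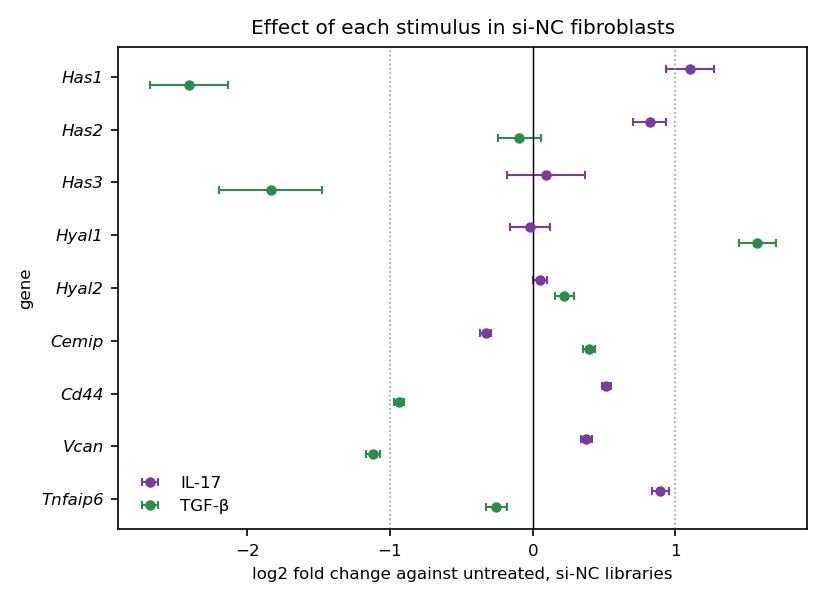
Log2 fold change of each gene (x axis) with IL-17 and with TGF-β against untreated si-NC CFs from edgeR (3 libraries a group). Bars are standard errors and dotted lines the threshold, a log2 change of 1. Has1 is higher with IL-17 (1.10) and lower with TGF-β (-2.41) than in untreated cells. A stimulus and its table cannot be told apart.

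Whether the siRNA effect depended on the stimulus was tested as a difference of log2 fold changes, at an absolute difference of at least 1. With IL-17, 0 of 9 members passed for either siRNA in edgeR or DESeq2, against 0.189% and 0.165% of all genes. In edgeR 4 and 2 members had an unadjusted p under 0.05, beside 2517 and 2055 of all 21219 genes tested. Among the members with an adjusted p within 0.05, the largest difference was that of Has2 given above. With TGF-β, Has2 passed for si-IAMP-1 (1 of 9, with 2.36% of all genes) and Has3 and Cemip for si-IAMP-2 (2 of 9, with 5.09%). Smaller differences with an adjusted p within 0.05 were those of Hyal2, Cemip, Cd44, Vcan and Tnfaip6 for si-IAMP-1, and of Hyal2, Cd44, Vcan and Tnfaip6 for si-IAMP-2. Among these, Tnfaip6 differed by 0.69 ± 0.10 for si-IAMP-1 and -0.70 ± 0.10 for si-IAMP-2, and Vcan by -0.42 ± 0.06 and -0.70 ± 0.06 (edgeR, adjusted p = 2.58e-05, 7.92e-06, 3.18e-05 and 7.78e-09). Without TGF-β si-NC replicate 3, Has3 also passed for si-IAMP-1, at 1.50. The target transcript 4930523C07Rik was itself lowered less under TGF-β, by differences of 0.73 ± 0.15 for si-IAMP-1 and 1.03 ± 0.16 for si-IAMP-2 (edgeR, adjusted p = 0.00113 and 1.7e-05), and the part of this in the members' differences was not tested.

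The wider pathway was followed in a list of 41 genes, of which 33 were tested in untreated CFs. With si-IAMP-1, 3 were called higher and 1 lower, beside 2.15% and 2.61% of all genes, and with si-IAMP-2, 3 and 3, beside 3.42% and 7.23%. Under IL-17 these were 4 and 4 of 33 with si-IAMP-1 (5.58% and 7.97% of all genes) and 5 and 5 with si-IAMP-2 (8.06% and 13.7%). Under TGF-β they were 4 and 4 of 32 (2.45% and 1.91%) and 5 and 3 (2.07% and 5.44%). The lower counts with si-IAMP-2 in untreated and IL-17 CFs were thus near the share of all genes.

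Of the 8 genes that supply the sugar nucleotides, 2 were called higher and 0 lower with si-IAMP-2 in untreated CFs, where 3.42% of all genes were higher. Under IL-17 these were 3 and 0 (8.06% of all genes higher), and under TGF-β 1 and 0 (2.07%). The median log2 fold change of the 8 was 0.20, 0.23 and 0.16, beside -0.02, -0.02 and 0.01 over all genes. With si-IAMP-1, 0 of the 8 were called in untreated, IL-17 or TGF-β CFs, with medians of 0.01, 0.08 and -0.02. Gfpt2, an enzyme that diverts fructose 6-phosphate into hexosamines, went from 199 ± 4.40 CPM with si-NC to 284 ± 3.72 with si-IAMP-1 and 1042 ± 47.5 with si-IAMP-2 in untreated CFs. It rose with si-IAMP-2 by 2.37 ± 0.03 (edgeR, adjusted p = 2.21e-17) and differed from si-IAMP-1 by 1.86 ± 0.03 (adjusted p = 2.74e-16). Uap1, which makes UDP-N-acetylglucosamine, rose by 1.13 ± 0.03 (edgeR, adjusted p = 2.1e-14). Ugdh, which makes UDP-glucuronic acid, had a change of 0.76 ± 0.03 (edgeR, adjusted p = 2.87e-13), under the log2 change of 1, and of -0.01 ± 0.03 with si-IAMP-1. Under IL-17 all 3 rose with si-IAMP-2 (1.63, 0.93 and 0.67), and none was called with si-IAMP-1. The si-IAMP-2 effects on Gfpt2 and Uap1 were lower under TGF-β than in untreated CFs, by differences of -2.22 ± 0.05 and -1.02 ± 0.05 (edgeR, adjusted p = 1.1e-19 and 3.87e-13). These were the 2 of 8 called for that difference, beside 5.09% of all genes. With TGF-β in si-NC cells Ugdh fell, by 2.19 on the log2 scale (-2.19 ± 0.04, edgeR, adjusted p = 1.24e-23).

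Ptx3 encodes pentraxin 3, which takes part in the cross-linking of hyaluronan with TSG-6. It rose with both siRNAs in all 3 tables, by 1.43 and 1.99 in untreated, 1.84 and 1.93 in IL-17 and 1.46 and 1.33 in TGF-β CFs, with adjusted p of at most 2.75e-05 in edgeR. It was also higher with IL-17 than in untreated cells, both with si-NC (1.75 ± 0.03). Hmmr, a hyaluronan-binding protein of the mitotic spindle, fell with both siRNAs in all 3 tables (-1.17 and -1.51 in untreated CFs), alongside the mitosis markers given above. Hapln1, a link protein that ties versican to hyaluronan, fell with si-IAMP-2 in untreated CFs from 3.56 to 1.15 CPM (-1.65 ± 0.17, edgeR, adjusted p = 4.39e-07). Tlr4, a receptor reported to respond to hyaluronan fragments, rose with si-IAMP-1 in the 3 tables (1.19, 1.01 and 0.67) and was not called with si-IAMP-2.

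Among the remaining receptors, Layn, which encodes the membrane receptor layilin, rose under IL-17 from 86.8 ± 2.45 CPM with si-NC to 134 ± 1.22 and 153 ± 3.26 (0.62 ± 0.03 and 0.79 ± 0.03). Lyve1, the hyaluronan receptor of lymphatic vessels and some macrophages, fell there from 3.78 ± 0.429 CPM to 1.97 ± 0.218 and 2.36 ± 0.411 (-0.95 ± 0.16 and -0.70 ± 0.16, edgeR, adjusted p = 0.000144 and 0.00156). Tlr2 rose with both siRNAs under TGF-β (0.72 ± 0.06 and 0.65 ± 0.06). Among binding genes, Hapln4 rose with si-IAMP-1 in untreated CFs (1.07 ± 0.21, edgeR, adjusted p = 0.000596), and Acan, the cartilage proteoglycan aggrecan, fell with both siRNAs under TGF-β (-1.06 ± 0.25 and -2.02 ± 0.26). Bcan and Hapln1 also fell with si-IAMP-1 under TGF-β (-0.95 ± 0.23 and -0.81 ± 0.28), and Gnpnat1, an enzyme of hexosamine synthesis, rose with si-IAMP-2 (0.78 ± 0.08).

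Some calls in the list rest on few reads. Hapln3, called lower with si-IAMP-2 in untreated CFs (edgeR, adjusted p = 0.0445), held 24 to 49 estimated counts with si-NC and 3 to 18 with si-IAMP-2, near the floor. Habp2 and Itih3, called lower with si-IAMP-1 under IL-17, held 0 and 0 to 8 estimated counts in those libraries and 0 to 42 and 18 to 163 with si-NC. Itih4, called lower with si-IAMP-2 under IL-17, ranged from 51 to 460 within si-NC alone. Itih5, a heavy chain of the inter-alpha-trypsin inhibitor family whose members attach to hyaluronan, was at 13.4 ± 1.12 CPM with si-NC under TGF-β and rose to 25.7 ± 2.15 with si-IAMP-1 (0.94 ± 0.09, edgeR, adjusted p = 1.03e-06). It was at 12.8 ± 1.74 with si-IAMP-2.

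With TGF-β in si-NC cells, 5 of 35 in the list were called higher and 4 lower. The 5 were Acan (3.45 ± 0.53), Bcan (3.34 ± 0.46), Tlr2 (2.82 ± 0.09), Hapln4 (2.55 ± 0.16) and Itih5 (1.50 ± 0.12). These counts are near the 12.5% and 9.07% of all genes called higher and lower with TGF-β. The 4 called lower were Ugdh, Lyve1 (from 4.34 ± 0.374 to 1.09 ± 0.0513 CPM), Hapln1 (-1.75 ± 0.20) and Hmmr (-1.50 ± 0.06). Acan remained low, at 3.19 ± 0.352 CPM with TGF-β and 0.290 ± 0.259 without. With IL-17, Tlr2 (2.18 ± 0.08), Ptx3 and Gfpt2 (1.06 ± 0.03) were called higher, 3 higher and 0 lower of 35, beside 1.09% and 0.306% of all genes.

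**Figure D4:**
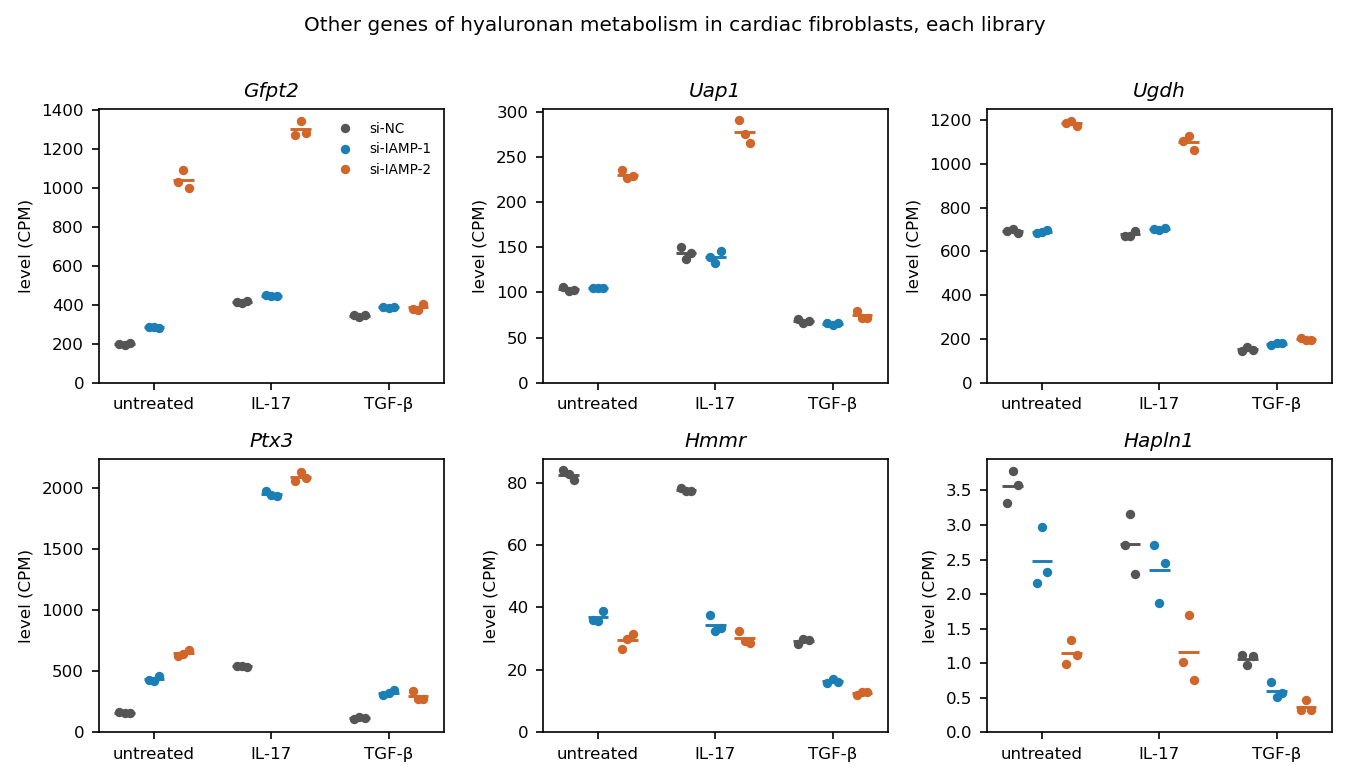
Level in CPM (y axis, linear, from 0) of 6 further genes of hyaluronan metabolism in the 27 CF libraries, by stimulus and siRNA, with a point per library and a bar at each mean of 3. These 6 were picked for the plot after their values were seen. Gfpt2, Uap1 and Ugdh are high with si-IAMP-2 in untreated and IL-17 cells, and Ptx3 is above si-NC with both siRNAs.

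Across the 9 group means of log2(CPM + 1), Cd44 and Vcan ran most alike (Pearson r = 0.98), and Cemip and Tnfaip6 most opposed (r = -0.95). These are descriptions over 9 points that share control libraries and tables. The genes most like Cemip were Syde2, Traf4 and Eda (r = 0.99, 0.99 and 0.99), those most like Tnfaip6 were Asb4, Trappc11 and Dcaf13 (0.97, 0.97 and 0.97), and those most like Has2 were Arv1, Ap1s3 and Hspg2 (0.95, 0.93 and 0.93). For Has1 they were Acsl4, Rbm34 and Stk40, for Cd44 Pwp2, Txnrd1 and Tmem87b, for Vcan Nup54, Lama4 and Adgrg2, for Hyal1 Arhgap45, Pth1r and Pecam1, and for Hyal2 Zkscan6, Med11 and Dgcr2. Has3 was under 1 CPM on average and was left out.

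In hearts the question was whether these genes differ between KO and Het animals, and no member was called. Of the 9, 8 were tested, with an adjusted p of 0.999967 each in edgeR. Hyal1 alone had an unadjusted p under 0.05 (0.018), at 5.27, 3.91, 4.62 and 6.04 CPM in Het and 5.60, 7.09, 6.98 and 6.20 in KO hearts, which overlapped. Over all genes tested 0% were called by edgeR, with 601 of 16675 at an unadjusted p under 0.05, and DESeq2 called 2 genes, of which 0 were members. Cd44 was at 11.1 ± 3.24 CPM in Het and 11.4 ± 1.76 in KO, Vcan at 10.7 ± 3.81 and 10.8 ± 0.790, and Hyal2 at 35.7 ± 3.24 and 36.9 ± 4.14 (SD, n = 4). Has1, Has2, Has3 and Tnfaip6 held 4 to 36 counts per heart, so that small changes were not detectable at this depth. Cemip, the most abundant member per kilobase in untreated si-NC CFs, had 0 counts in the 4 Het hearts and 3, 4, 0 and 3 in the KO hearts, against a floor of 3 counts per heart, and was not tested.

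**Figure D5:**
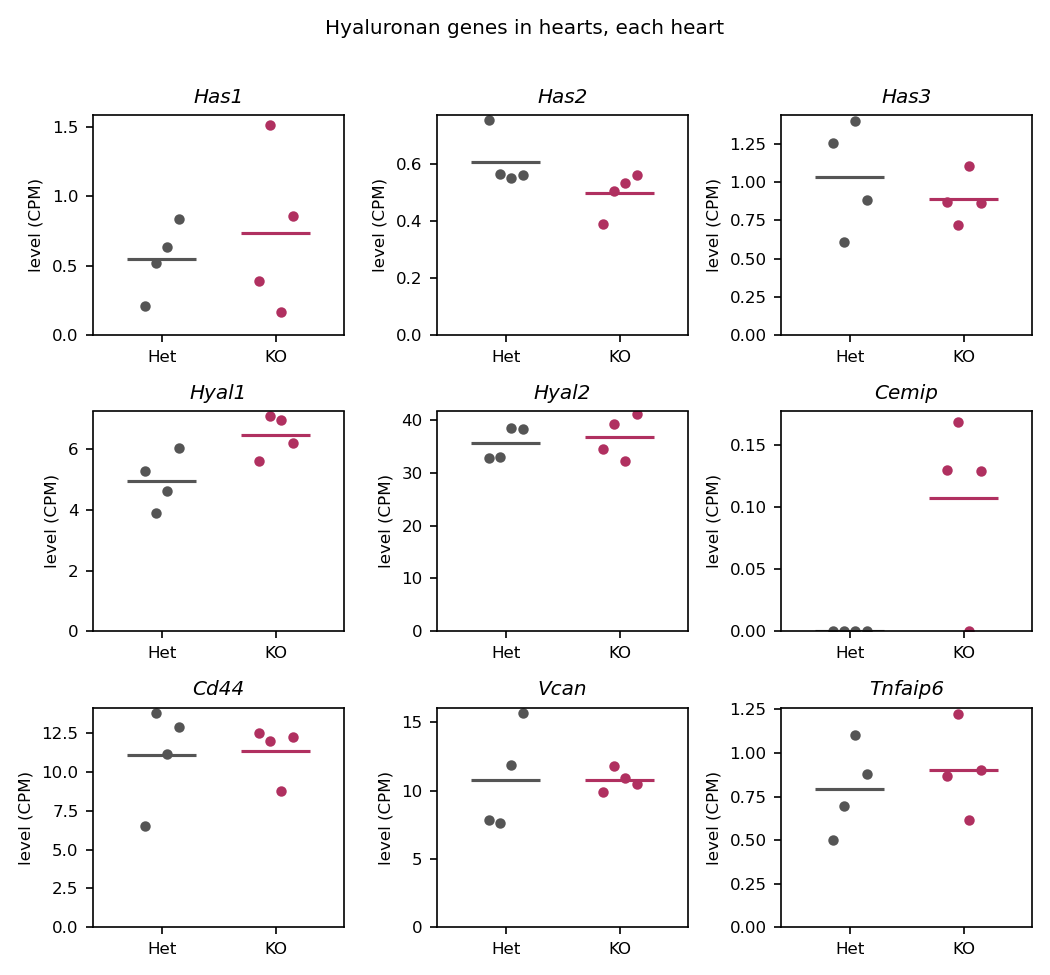
Level in CPM (y axis, linear, from 0) of each of the 9 genes in 4 Het and 4 KO hearts, with a point per heart and a bar at each mean. Het and KO hearts overlap for every gene.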

How the data were processed

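The members and lists were chosen with earlier results of these data known. Per the labels and the methods of the study, the authors trimmed reads with cutadapt, aligned them to GRCm38 with HISAT2 and quantified them with StringTie, and the labels also name DESeq2. The authors deposited whole numbers per gene without normalization. Deposited CF values were taken as estimated counts, since 6 was the commonest value of genes seen in 1 library only (17.0 to 22.0% of them), and the heart values, where it was 1 (57.1%), as counts. How StringTie output became whole numbers, the annotation release and the strand setting are not given in the sources used here. All columns were used, and the heart columns name a group but no single sample.

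Analyses used R 4.3.3, edgeR 4.0.16 and DESeq2 1.42.0. Each table went into 1 edgeR fit with TMM factors, the filterByExpr filter and robust quasi-likelihood dispersions. The untreated table was joined to each stimulated table for stimuli and differences of effects. Standard errors were derived from the log2 fold change and the F statistic. Printed CPM used TMM over the 27 CF or the 8 heart libraries. Detection floors, 3 read pairs or 18 estimated counts in CFs and 3 counts in hearts, cover counting error only. Exon lengths and positions came from GENCODE vM21 (GRCm38). The pipeline was tested on simulated data. The rule for named genes took the 9 members, the called genes of the pathway list (at most 5 a comparison, those with the largest change), and Has2os, Ugdh, Ptx3 and Itih5. Layn, Lyve1, Tlr2, Tlr4, Uap1, Hapln1, Hapln4, Gnpnat1 and Hmmr are also given in comparisons beyond those 5, chosen after their values were seen, and likeness was the 3 highest Pearson r over group means among genes of at least 1 CPM. Other settings tried were RLE size factors, DESeq2, keeping all genes, a minimum of 10 counts per library, the other fold threshold, the replicate number as a block, the 2 compared groups alone, values divided by 6 and leaving out each library.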

Additional observations from a re-analysis of the deposited data

Results flagged for a closer look

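For 3 members the effect of an siRNA differed between TGF-β and untreated CFs by at least 1 on the log2 scale, with an adjusted p within 0.05 in edgeR's test of the difference. These were Has2 with si-IAMP-1 (difference of log2 fold changes -1.26), Has3 with si-IAMP-2 (1.86) and Cemip with si-IAMP-2 (1.19). The fall of the target 4930523C07Rik was also smaller under TGF-β, by 0.73 for si-IAMP-1 and 1.03 for si-IAMP-2, and its part was not tested. TGF-β and its table cannot be told apart, and Has3 rests on 18 to 163 estimated counts per library. In hearts, 1 sample lay far from the other 3 for Has2 among Het hearts (a gap of 0.929 of the group's range) and for Cd44 among KO hearts (0.850). Chance flags about 1 in 20 groups, and Has2 rests on 13 to 18 counts in those hearts.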

How the results depend on the processing

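For 89 pairs of a member and a comparison the adjusted p was within 0.05 or the change 1.5-fold or more, and under the alternatives run 0 of their 1765 values changed direction. Among the other 54, which met neither condition, 18 changed sign under some alternative. The other fold threshold moved the number of members called from 1 to 5 for si-IAMP-1 in untreated CFs, from 6 to 0 and from 5 to 3 for si-IAMP-1 and si-IAMP-2 under IL-17, from 2 to 0 for si-IAMP-2 under TGF-β against si-NC and against si-IAMP-1, from 1 to 3 for IL-17 in si-NC cells, and, for differences of effects, from 0 to 1 for si-IAMP-1 with IL-17, from 1 to 2 for si-IAMP-1 with TGF-β and from 2 to 4 for si-IAMP-2 with TGF-β. At least 10 counts in every library moved it from 0 to 1 for si-IAMP-1 under TGF-β, where Has1 passed. DESeq2, RLE size factors, keeping all genes, values divided by 6 and the 2 compared groups alone moved no count of members by over 1.5 times. Leaving out 1 library gave 1 to 2 members for si-IAMP-1 in untreated CFs, 0 to 1 under TGF-β, 1 to 3 for si-IAMP-2 under TGF-β, 0 to 1 for IL-17 in si-NC cells and 1 to 2 for the difference of the si-IAMP-1 effect with TGF-β. The replicate number as a block gave the same number of called members as the fit without it in all 15 CF comparisons, for example 1 and 4 for si-IAMP-1 and si-IAMP-2 in untreated CFs. Libraries with the same number did not deviate together, with correlations of -0.19 to 0.07 within tables, -0.10 to 0.04 between untreated and TGF-β and -0.05 to 0.12 between untreated and IL-17 libraries, where 2 of 9 pairs were over 0.1, so the numbers were not taken to pair them. For the hearts alone, no paired analysis was possible, because their columns carry no replicate number. Depth limits Has3 in CFs, Has1 under TGF-β, and Has1, Has2, Has3, Cemip and Tnfaip6 in hearts.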
